A study of Homo sapiens with 17 samples.

Results

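The solvent controls of a drug study in MDA-MB-231, a mesenchymal, triple-negative human breast cancer line, were compared with each other: cells given ethanol, the solvent of Maraviroc, against cells given DMSO, the solvent of the code-named compound DZH_2, and against untreated cells. The members were the arrays whose titles name MDA-MB-231 with ethanol (2 arrays), with DMSO (2 arrays) or untreated (1 array), which are 5 of the 17 arrays of the series and 5 of its 13 MDA-MB-231 arrays. None of these 5 arrays received a compound. All cells were seeded for 24 h, the protocol gives 48 h of treatment with the compounds, and total RNA (5.5 ug) from Trizol extraction was labelled with the GeneChip WT PLUS kit for Affymetrix arrays. No label states how much ethanol or DMSO was added, how long the solvents alone were left on the cells, or whether replicate arrays stand for separate cultures. The p-values reflect the spread within the groups of the 11 MDA-MB-231 arrays fitted, which include arrays given compounds. Part of that spread can be technical. The 2 DMSO arrays and the untreated array are called the 3 control arrays below.

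Ethanol at low concentration is a common vehicle for hydrophobic drugs. Cells can oxidise ethanol to acetaldehyde and acetate through alcohol and aldehyde dehydrogenases, and acetate can be joined to coenzyme A for use in lipid synthesis. Vehicle cells are the baseline against which a compound is read, so a difference between vehicles, or between replicates of a vehicle, enters every comparison that uses them. Several stress and nutrient programmes are known to move readily in cultured tumour cells. ATF4 is the transcription factor that raises genes of amino acid synthesis and transport when amino acids run short, HIF1 raises glycolytic genes when oxygen is low, and SREBP2 raises sterol synthesis when membrane cholesterol falls.

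The mean signals of the cells' identity marker lists were similar in the 5 arrays, although single markers differed. The mean log2 signal of 14 mesenchymal markers was 11.86 and 11.9 in the ethanol arrays, against 11.9 to 11.96 in the 3 control arrays. Of the 14, 12 had a mean above 5.86, the signal under which 75% of the negative controls lay, which is used below as the limit of detection. Both ethanol arrays lay above all 3 control arrays in 3 of the 14 (21.4%, where 14.7% of all genes did), among them FOSL1 (log2 difference 0.83). They lay below in 1 (7.14%, where 14.9% of all genes did), ZEB1 (-0.71). Of 14 epithelial and luminal markers 8 were above the limit of detection, among them KRT8 and KRT18. CDH1, the epithelial cadherin, had log2 signals of 3.84 and 3.83 in the ethanol arrays, against 3.44 and 3.71 in the DMSO arrays and 3.99 in the untreated array, all below that limit. EPCAM had 6.86 and 5.18 in the ethanol arrays, against 6.67, 6.83 and 6.79 in the controls. Of 9 fibroblast markers 2 were above the limit of detection. Of 9 leukocyte markers 7 were above it. LAPTM5 had 15.29 and 15.77 in the ethanol arrays, against 14.99, 15.18 and 15.29 in the controls. CD68 had 14.18 and 14.24, against 13.60, 13.99 and 13.44. The leukocyte marker PTPRC was under the limit, with log2 signals of 5.83 and 5.57 in the ethanol arrays, against 5.73, 5.74 and 5.70 in the controls. Array pairs correlated across genes at r of 0.981 to 0.9935, and the 2 ethanol arrays correlated at 0.9872 with each other. The SD of the log2 difference over all genes was 0.462 between the ethanol arrays and 0.403 between the DMSO arrays. It was 0.424 between ethanol replicate 1 and the untreated array, so this ethanol array lay as near to untreated cells as to its own replicate.

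No gene passed the threshold between the solvents. Limma called 0 of 17687 genes (0.0%) at a Benjamini-Hochberg adjusted p under 0.05 for ethanol against the 3 control arrays. The smallest adjusted p was 0.194, shared by 46 genes. At an unadjusted p under 0.05 there were 2068 genes (11.7%), of which 961 (5.43%) were higher and 1107 (6.26%) lower with ethanol, where 884 would be expected by chance if no gene differed. Every gene difference below is therefore a measured value that did not pass. Both ethanol arrays lay above all 3 control arrays in 2594 genes (14.7%) and below all 3 in 2632 genes (14.9%). The mean difference also reached 1 on the log2 scale, a doubling, in 89 of those higher (0.503%) and in 157 of those lower (0.888%).

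Against the single controls the counts were likewise 0. Ethanol against DMSO gave 0 calls by limma (0.0%) and 2017 genes at an unadjusted p under 0.05 (11.4%). Ethanol against the untreated array gave 0 calls (0.0%) and 750 genes at that level (4.24%), below the number expected by chance. These comparisons share the ethanol arrays, and the lone untreated array is assumed to vary like the other groups.

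Among the genes with the smallest p, those lower with ethanol had the more closely matching arrays. CYB5R4, a reductase of the endoplasmic reticulum that passes electrons to cytochrome b5, had log2 signals of 7.87 and 7.91 in the ethanol arrays, against 9.30 and 9.61 in the DMSO arrays and 9.09 in the untreated array. Its log2 difference was -1.44 ± 0.23 (SE of the limma fit; adjusted p = 0.194). ABCA1, the transporter that exports cholesterol from cells, had 5.72 and 6.33 in the ethanol arrays, against 7.82 and 7.83 with DMSO and 7.54 in untreated cells, a log2 difference of -1.71 ± 0.30 (limma adjusted p = 0.194). In both genes the ethanol arrays lay more than 1 log2 unit below every control array, and 1 of the 2 ethanol values of ABCA1 lay under the limit of detection. EID1, an inhibitor of the acetyltransferase EP300, had 10.12 and 9.60 in the ethanol arrays, against 11.30, 11.21 and 10.88 in the DMSO and untreated arrays. CCDC14, a centrosomal protein gene, had 8.85 and 8.49 in the ethanol arrays, against 10.25, 10.57 and 9.80 in the controls. The other 4 were MIR99AHG, the long noncoding host transcript of the miR-99a cluster (-1.31 ± 0.23), PPIL4, a peptidyl-prolyl isomerase-like protein (-1.37 ± 0.26), SHPRH, a ubiquitin ligase for PCNA (-1.15 ± 0.22), and CHML, a Rab escort protein (-1.10 ± 0.21). The genes were picked for having both ethanol arrays beyond all 3 control arrays, so that this holds for each is no finding.

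In most of the genes higher with ethanol the 2 ethanol arrays lay further apart, with replicate 2 the higher. MSMP, which codes for a small secreted protein of the microseminoprotein family, had log2 signals of 12.17 and 15.21 in the ethanol arrays, against 8.60 and 7.98 in the DMSO arrays and 10.90 in the untreated array. Its log2 difference of 4.53 ± 0.90 (limma adjusted p = 0.194) was accompanied by a gap of 3.05 between the ethanol replicates, counted as replicate 2 over replicate 1. That the groups did not overlap follows from the way these genes, too, were picked. Untreated cells lay nearer to ethanol replicate 1 than to DMSO. ENPP1, a surface enzyme that hydrolyses extracellular nucleotides, had 13.68 and 15.03 in the ethanol arrays, against 12.17 and 12.12 with DMSO and 12.70 in untreated cells, a log2 difference of 2.03 ± 0.40. WNT5A, a ligand of the non-canonical Wnt pathway, had 9.36 and 9.64 in the ethanol arrays, against 8.51, 8.12 and 8.41 in the controls, a log2 difference of 1.15 ± 0.22. WNT5A was the one of the 3 whose ethanol arrays lay close together. The remaining 5 were the scavenger receptor gene SCARA3 (1.53 ± 0.32), TMEM45A, a transmembrane protein gene (1.50 ± 0.31), GPR137, an orphan receptor of the lysosome (1.49 ± 0.31), the ubiquitin ligase RNF167 (1.14 ± 0.23) and PGCKA1. In PGCKA1 the ethanol arrays, at 6.22 and 6.10, were just above the limit of detection, and the control arrays, at 4.96, 5.13 and 4.97, were under it, so it was kept through the ethanol arrays alone and no size is given for its difference.

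**Figure D1:**
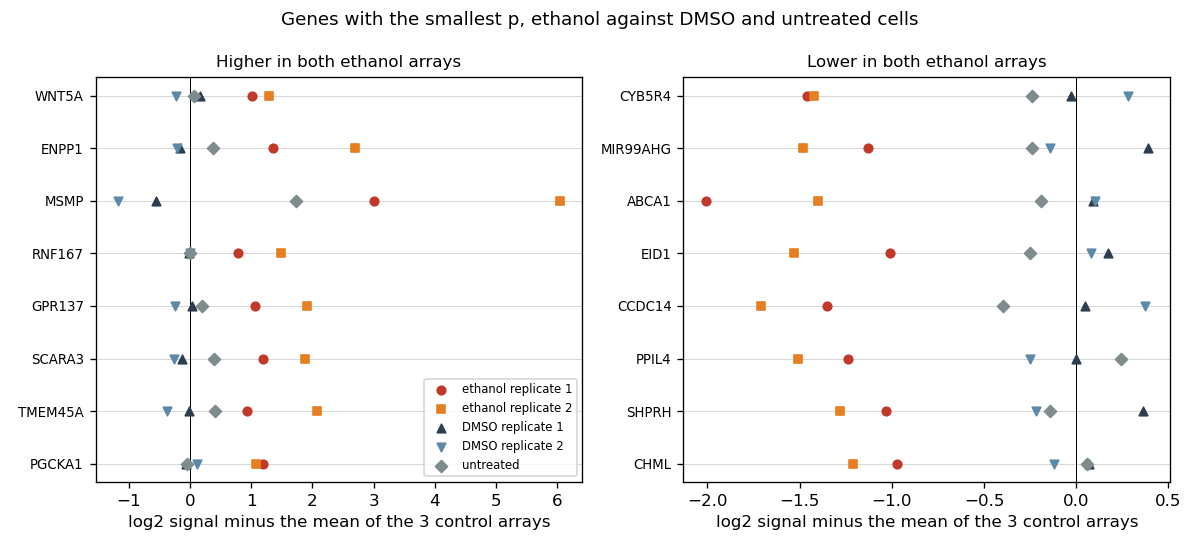
Log2 signal minus the mean of the 3 control arrays (x axis) for the 8 genes with the smallest p in each direction, 1 point per array. The genes were chosen for having both ethanol points beyond all control points, and MSMP shows the widest gap between the ethanol arrays, 12.17 against 15.21 in log2 signal.

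The genes of the cytosolic ribosome shared a small, even difference. They code for the proteins of the 2 ribosomal subunits, and many of their mRNAs begin with a run of pyrimidines through which their translation is controlled. Of 79 listed genes 46 were measured, all above the limit of detection, and 0 passed the test. Both ethanol arrays were below all 3 controls in 34 of the 46 (73.9%, where 14.9% of all genes were), and above them in 0. The median log2 difference over the 46 was -0.32, with -0.30 in ethanol replicate 1 and -0.31 in replicate 2, against 0.01 and 0.04 in the DMSO arrays and -0.07 in the untreated array. Over all genes the median was 0.018. At an unadjusted p under 0.05 limma had 13 of the 46 lower (6.26% of all genes were) and 0 higher.

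The member with the smallest p was RPL31, a protein of the large subunit at the peptide exit. RPL31 had log2 signals of 14.44 and 14.50 in the ethanol arrays, against 15.31 and 15.42 with DMSO and 15.21 in untreated cells, a log2 difference of -0.84 ± 0.22 (limma adjusted p = 0.233). RPS6, the small-subunit protein that S6 kinase phosphorylates, had 13.55 and 13.57 in the ethanol arrays, against 14.33, 14.22 and 14.11 in the controls (-0.66 ± 0.19). In both genes the 2 ethanol arrays agreed to within 0.1 log2 unit. RPL35A (-0.75 ± 0.22), RPL11, which also binds MDM2 (-0.67 ± 0.24), RPL34 (-0.60 ± 0.21) and RPL7 (-0.58 ± 0.20) were lower on both arrays too. Ribosomal protein genes have many processed pseudogenes, and whether their probes also read such copies was not tested.

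Many, but not all, of these genes have a pyrimidine run at the RefSeq transcription start (GRCh38.p14, gene strand, 5′ to 3′). The 15 bases before and the 15 from that start are given for 4 of the members named above. These 4 were picked as examples, and all of them have the run. Capitals mark the run of C and T that begins at the start. The windows lie at chr2:101002274-101002303 (plus strand) for RPL31, chr3:197950175-197950204 (plus) for RPL35A, chr9:19380222-19380251 (minus) for RPS6 and chr4:108620561-108620590 (plus) for RPL34.
RPL31: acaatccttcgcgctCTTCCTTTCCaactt
RPL35A: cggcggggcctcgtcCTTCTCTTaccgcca
RPS6: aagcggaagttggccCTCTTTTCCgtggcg
RPL34: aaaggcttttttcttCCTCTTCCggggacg
A start of C followed by at least 4 bases that are C or T, read on the gene strand, was found in 30 of the 42 measured ribosomal protein genes with a RefSeq promoter entry (71.4%), and in 4.48% of the 14250 measured genes that have one. The ribosomal genes with such a start had a median log2 difference of -0.31 (30 genes, 24 of them below all controls on both ethanol arrays), and those without it of -0.35 (12 genes, 8 below). Among the other measured genes, 608 had such a start and 20.1% of these were below all controls on both ethanol arrays, against 15.1% of the 13600 without it.

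**Figure D2:**
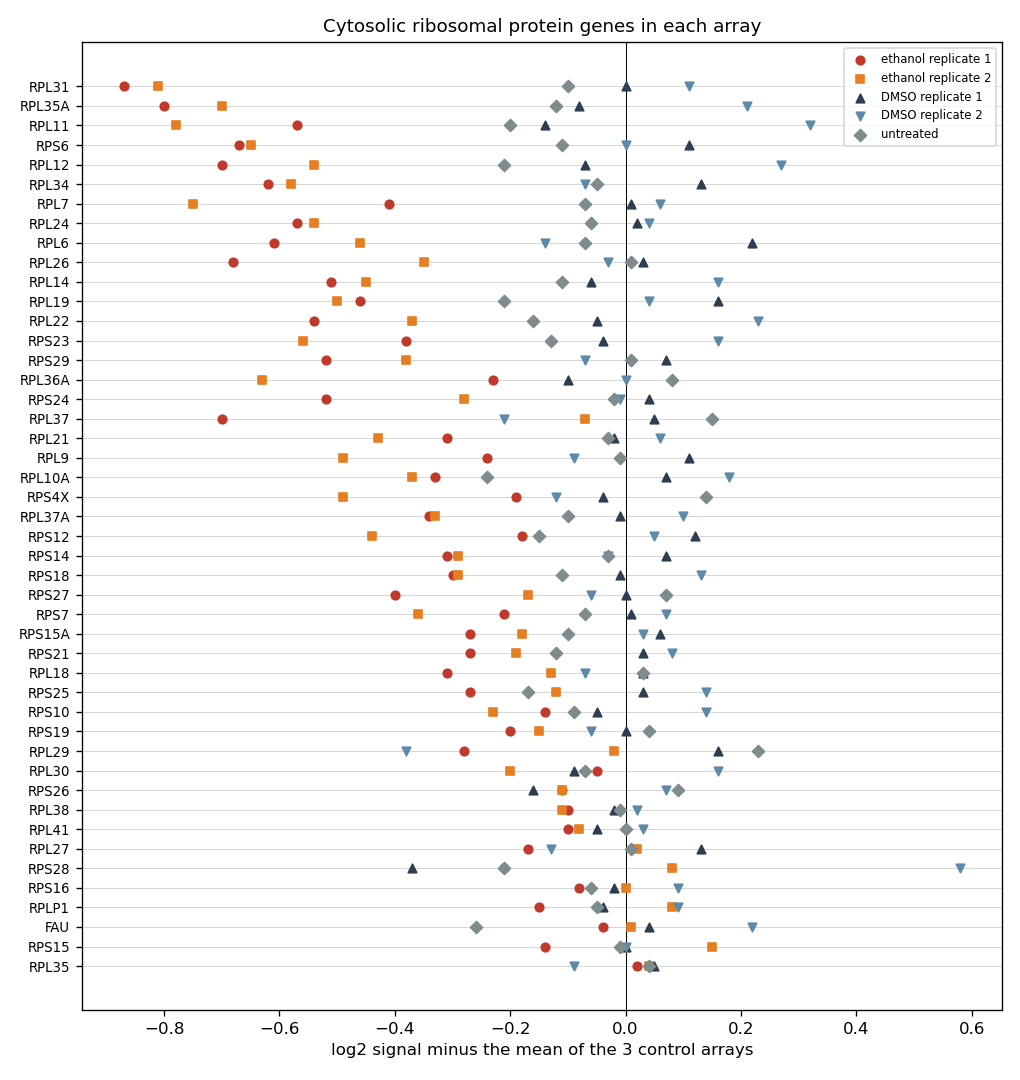
Log2 signal minus the mean of the 3 control arrays (x axis) for the 46 measured ribosomal protein genes, ordered by their mean difference, 1 point per array. Both ethanol points lie left of all control points in 34 of the 46 genes.

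Other parts of the translation machinery were examined next. Of 27 measured initiation and elongation factors, 0 passed, 16 were below all controls on both ethanol arrays (59.3%, against 14.9% of all genes) and 1 above (3.7%, against 14.7%), with a median log2 difference of -0.33. EIF2S2, the beta subunit of the factor that brings the initiator tRNA, had log2 signals of 13.18 and 12.41 in the ethanol arrays, against 14.09, 13.94 and 13.84 in the controls (-1.16 ± 0.30). EIF3A, a core subunit of the eIF3 complex, had 12.77 and 12.11 in the ethanol arrays, against 13.67, 13.41 and 13.41 in the controls (-1.06 ± 0.30), and EIF3H differed by -0.89 ± 0.27. Of 25 nucleolar and ribosome biogenesis genes 9 were below all controls on both ethanol arrays (36.0%, against 14.9% of all genes) and 0 above (14.7% of all genes). Here the ethanol arrays were not alike, with a median of -0.09 in replicate 1 and -0.55 in replicate 2. The nucleolar proteins NPM1 (-0.97 ± 0.31) and NCL (-0.90 ± 0.30) and the processome subunit UTP15 (-0.79 ± 0.24) were lower on both arrays.

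Part of the cholesterol synthesis genes lay above the controls with ethanol, and the 2 ethanol arrays differed. Of 20 measured, 0 passed, 8 were above all controls on both ethanol arrays (40.0%, against 14.7% of all genes) and 0 below (14.9% of all genes). The list median was 0.16 in ethanol replicate 1 and 0.87 in replicate 2, against -0.08 to 0.06 in the controls. DHCR7, which makes cholesterol from its last precursor, had log2 signals of 10.86 and 11.86 in the ethanol arrays, against 10.37 and 10.20 with DMSO and 10.43 in untreated cells (1.02 ± 0.29). MVK, mevalonate kinase, had 8.91 and 9.16 in the ethanol arrays, against 8.54, 7.68 and 8.08 in the controls (0.94 ± 0.25). FDPS, which makes farnesyl diphosphate (0.71 ± 0.24), and SREBF2, the gene of SREBP2 itself (0.66 ± 0.23), were above all controls on both arrays as well. HMGCS1, the enzyme that makes HMG-CoA, was not: it had 7.97 and 8.92 in the ethanol arrays, against 8.09, 7.97 and 8.12 in the controls, so that 1 ethanol array lay among the controls.

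LXR is the nuclear receptor that senses oxysterols and raises cholesterol export. Of its 11 listed genes 9 were measured, 3 were below all controls on both ethanol arrays (33.3%, against 14.9% of all genes) and 2 above (22.2%, against 14.7%), and the median log2 difference was -0.19. With 9 genes, these counts are near the shares of all genes. The exporters ABCA1, given above, and ABCG1 were lower. ABCG1 had log2 signals of 10.30 and 9.55 in the ethanol arrays, against 10.90, 10.82 and 11.09 in the controls (-1.02 ± 0.25). The third was APOE, the lipoprotein ligand, at -0.19 ± 0.26, a difference smaller than its SE. LPCAT3, which puts polyunsaturated chains into phospholipids (0.87 ± 0.31), and SCD, the stearoyl-CoA desaturase that SREBP also raises (0.59 ± 0.26), were above all controls. SREBF1 (-0.21 ± 0.22) and NR1H3, the gene of LXR alpha (-0.11 ± 0.25), overlapped the controls, as did SMPDL3A (0.0 ± 0.33) and ABCG4, whose signal was under the limit of detection.

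The genes that handle ethanol and its products showed no common direction. Of 23 measured genes of alcohol, aldehyde and acetate metabolism 15 were above the limit of detection, 0 passed, 5 were above all controls on both ethanol arrays (21.7%, against 14.7% of all genes) and 1 below (4.35%, against 14.9%), with a median log2 difference of 0.07. ACSS2, which joins acetate to coenzyme A, had log2 signals of 10.32 and 10.60 in the ethanol arrays, against 9.35 and 9.32 with DMSO and 9.98 in untreated cells (0.91 ± 0.33). ACLY, which makes acetyl-CoA from citrate, had 13.94 and 14.10 in the ethanol arrays, against 13.59, 13.44 and 13.63 in the controls (0.47 ± 0.20). Both are also known targets of SREBP. ALDH3A2, an aldehyde dehydrogenase for fatty aldehydes, was higher (0.67 ± 0.24). ALDH2, the mitochondrial enzyme that clears acetaldehyde, had 10.19 and 9.98 in the ethanol arrays, against 10.96, 10.85 and 10.47 in the controls (-0.68 ± 0.34). For ALDH3B1 the ethanol arrays differed, with 11.52 among the controls (11.55, 11.47 and 11.31) and 10.09 below them.

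For glycolytic and histone genes the list median of untreated cells lay between those of ethanol and DMSO. Of 18 measured glycolytic genes 9 were above all controls on both ethanol arrays (14.7% of all genes were) and 2 below (11.1%, near the 14.9% of all genes), and 0 passed. The list median was 0.31 and 0.71 in the ethanol arrays, against -0.06 and -0.16 in the DMSO arrays and 0.23 in the untreated array. PGK1, phosphoglycerate kinase, had log2 signals of 14.43 and 14.89 in the ethanol arrays, against 13.58 and 13.39 with DMSO and 14.16 in untreated cells (0.95 ± 0.30). GPI, the isomerase of glucose 6-phosphate (0.87 ± 0.29), the aldolases ALDOC (1.13 ± 0.40) and ALDOA (0.59 ± 0.23) and the mutase PGAM1 (0.81 ± 0.29) lay above all controls as well. LDHB, the heart-type lactate dehydrogenase subunit, lay below them (-0.54 ± 0.21).

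Of 47 measured histone genes that are made during DNA replication, 39 were above the limit of detection, 23 were above all controls on both ethanol arrays (48.9%, against 14.7% of all genes), 0 were below (14.9% of all genes) and 0 passed. The list median was 0.62 and 0.32 in the ethanol arrays, against -0.05 and -0.22 with DMSO and 0.28 in untreated cells. H2AC4 had log2 signals of 13.16 and 12.74 in the ethanol arrays, against 11.63 and 11.26 with DMSO and 12.40 in untreated cells (1.19 ± 0.48). H2BC5 (0.59 ± 0.21) and H3C1 (0.83 ± 0.33) were also above all controls, as was H2BC7, whose 3 controls were under the limit of detection. Histone genes of 1 class are nearly alike in sequence, so their probe sets may not be separate measurements. Mitotic genes were lowest in DMSO replicate 2: the median of 34 was 0.35 and -0.09 in the ethanol arrays, against 0.15 and -0.45 in the DMSO arrays and 0.30 in untreated cells. Of these 34 genes 6 were above all controls on both ethanol arrays (17.6%, near the 14.7% of all genes) and 0 below (14.9% of all genes). PLK1, a kinase of mitotic entry, had log2 signals of 15.11 and 14.81 in the ethanol arrays, against 14.35, 13.59 and 14.60 in the controls (0.78 ± 0.34). BIRC5, the gene of survivin, differed by 0.71 ± 0.30. FOXM1, which drives mitotic genes, had 12.79 and 12.46 in the ethanol arrays, against 11.61 and 10.99 with DMSO and 12.57 in untreated cells, so that ethanol and untreated overlapped.

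Of 25 measured lysosomal genes, 11 were above all controls on both ethanol arrays (44.0%, against 14.7% of all genes) and 2 below (8.0%, against 14.9%), 0 passed, and the list median was 0.16 and 0.50 in the ethanol arrays. CTSA, a protective carboxypeptidase, had log2 signals of 12.91 and 13.60 in the ethanol arrays, against 12.26 and 12.13 with DMSO and 12.66 in untreated cells (0.90 ± 0.25). ATP6V0D1, a subunit of the proton pump (0.67 ± 0.22), GLA, alpha-galactosidase A (0.85 ± 0.29), and CLCN7, the lysosomal chloride exchanger (0.53 ± 0.21), were above all controls too. Of 14 measured enzymes of DNA and histone methylation 4 were below all controls on both arrays (28.6%, against 14.9% of all genes) and 0 above (14.7% of all genes). Their median log2 difference was -0.23. All 14 were above the limit of detection. Among all genes above it, grouped by gene span as described at the end, the share below ran from 11.2% to 25.8%. With 14 genes, 4 is near the upper end of that range. TET2, which oxidises methylcytosine, had 7.35 and 7.01 in the ethanol arrays, against 8.58, 7.73 and 8.78 in the controls (-1.18 ± 0.32). KMT2A (-0.71 ± 0.23) and EZH2 (-0.68 ± 0.22), which methylate histone H3, were among the 4.

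**Figure D3:**
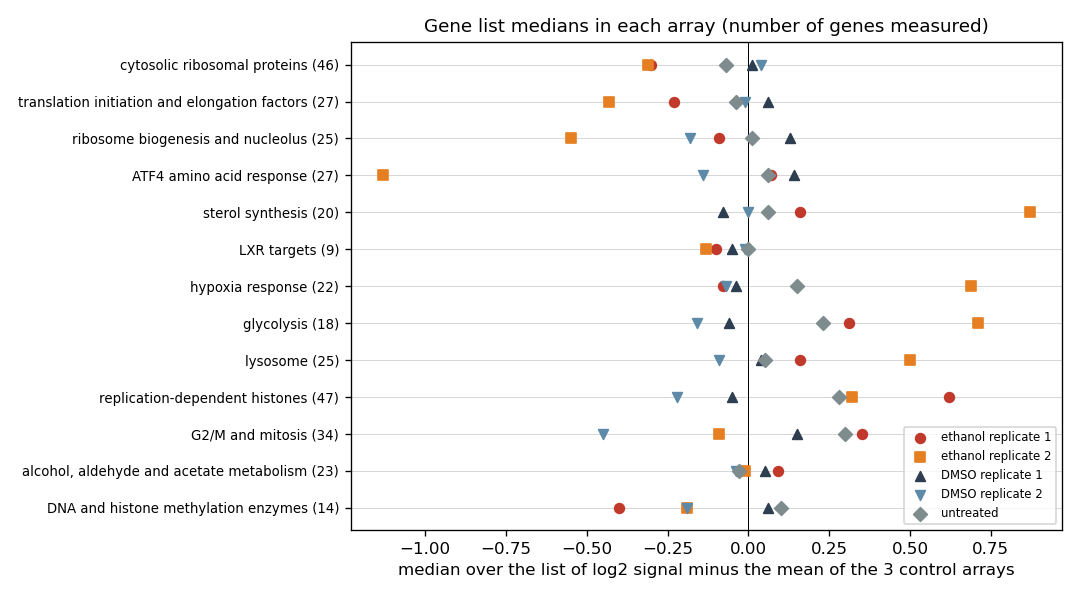
Median over each gene list of log2 signal minus the mean of the 3 control arrays (x axis), 1 point per array, with the number of genes measured in brackets. Ribosomal proteins have both ethanol arrays at the same level (-0.30 and -0.31), whereas the ATF4 list has them at 0.07 and -1.13.

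The 2 ethanol arrays disagreed most on the amino acid response. Replicate 1 exceeded replicate 2 by at least 1 log2 unit in 277 genes (1.57%), and replicate 2 exceeded replicate 1 by that much in 365 genes (2.06%). The DMSO arrays differed so in 155 genes (0.876%) and 186 genes (1.05%). Ethanol replicate 1 was above all 3 controls while replicate 2 was below them in 872 genes (4.93%), and the reverse held in 803 (4.54%). Of 27 measured genes of the ATF4 amino acid response 16 were higher in replicate 1 by at least 1 log2 unit, and 0 were higher in replicate 2 by that much. The list median was 0.07 in replicate 1 and -1.13 in replicate 2, against 0.14 and -0.14 in the DMSO arrays and 0.06 in the untreated array. By the fit 0 of the 27 passed, 9 were below all controls on both ethanol arrays (33.3%, against 14.9% of all genes) and 1 above (3.7%, against 14.7%).

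CHAC1, an enzyme that breaks down glutathione, had the largest gap of replicate 1 over replicate 2. CHAC1 had log2 signals of 12.49 and 8.88 in the ethanol arrays, against 11.85 and 10.96 in the DMSO arrays and 12.02 in the untreated array, so replicate 1 lay above all controls and replicate 2 below all of them. ASNS, asparagine synthetase, had 14.76 and 11.93 in the ethanol arrays, against 15.20, 14.96 and 15.02 in the controls. PSAT1, of serine synthesis, had 15.63 and 13.09 in the ethanol arrays, against 15.58, 15.64 and 15.42 in the controls. For ASNS and PSAT1 the controls agreed closely and the first ethanol array lay within about 0.5 log2 unit of them, while the second was more than 2 units lower. CTH, which makes cysteine from cystathionine, had 9.07 and 6.50 in the ethanol arrays, against 8.82, 8.73 and 8.78 in the controls. PCK2, mitochondrial PEP carboxykinase, had 8.63 and 6.77 in the ethanol arrays, against 9.23, 9.14 and 9.15 in the controls.

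The 8 largest gaps of replicate 1 over replicate 2 also held 3 genes outside the ATF4 list, the arginine-synthesis gene ASS1 and the tRNA synthetases SARS1 and GARS1. ASS1 had log2 signals of 12.74 and 10.22 in the ethanol arrays, against 14.07, 13.87 and 13.79 in the controls, so that both ethanol arrays lay more than 1 unit below (-2.43 ± 0.85, limma adjusted p = 0.311). SARS1 had 11.03 and 8.68 in the ethanol arrays, against 12.79, 11.71 and 12.18 in the controls (-2.38 ± 0.92). GARS1 had 14.91 and 12.82 in the ethanol arrays, against 15.11, 14.93 and 15.05 in the controls. Other ATF4 genes below all controls on both ethanol arrays included the cystine transporter SLC7A11 (-1.29 ± 0.48), the mitochondrial folate enzyme MTHFD2 (-1.29 ± 0.60), DDIT3, the gene of CHOP (-1.11 ± 0.52), and CEBPG, a partner of ATF4 (-1.09 ± 0.50), and also ATF3, NUPR1 and XPOT. The ethanol means of DDIT3 (5.73) and ATF3 (5.78) lay under the limit of detection, so the size given for DDIT3 is uncertain. VLDLR, a lipoprotein receptor, was the 1 member of the ATF4 list above all controls (0.61 ± 0.26).

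ATF4 with a C/EBP partner is known to bind a composite element whose core reads TGATGNAA. The 250 bases before the RefSeq start (GRCh38.p14, gene strand, 5′ to 3′) are shown for the 2 genes with the largest gap between the ethanol arrays among the list's members, ASNS (chr7:97872409-97872658, minus strand) and CHAC1 (chr15:40953221-40953470, plus strand). Capitals mark a match to the core on either strand, which begins 68 bases before the start in ASNS and 209 bases before it in CHAC1, there on the opposite strand.
ASNS: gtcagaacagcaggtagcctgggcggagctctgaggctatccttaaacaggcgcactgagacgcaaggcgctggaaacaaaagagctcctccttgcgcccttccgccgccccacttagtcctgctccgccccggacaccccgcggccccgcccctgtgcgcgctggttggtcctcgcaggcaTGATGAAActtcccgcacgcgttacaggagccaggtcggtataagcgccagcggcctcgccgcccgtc
CHAC1: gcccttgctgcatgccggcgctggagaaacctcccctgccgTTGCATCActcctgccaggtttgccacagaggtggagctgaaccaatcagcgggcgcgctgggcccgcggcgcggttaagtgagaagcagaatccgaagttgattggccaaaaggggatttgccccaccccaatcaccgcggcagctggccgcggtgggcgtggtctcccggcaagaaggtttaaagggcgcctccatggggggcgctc
The core was found in this window in 3 of the 22 list members with a RefSeq promoter entry (13.6%) and in 313 of the 14250 measured genes with one (2.2%). These matches describe the letters of the window and show no binding.

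**Figure D4:**
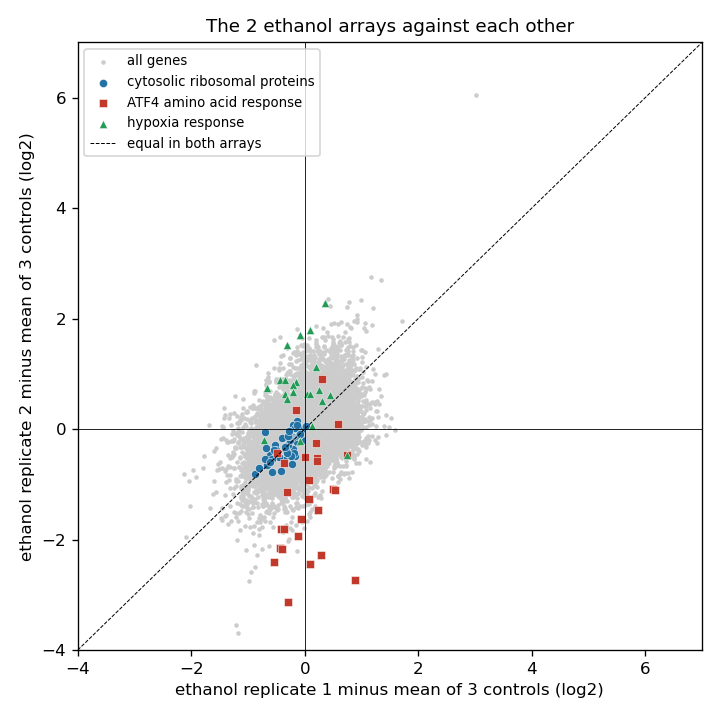
Log2 difference of ethanol replicate 1 (x axis) and of ethanol replicate 2 (y axis) from the mean of the 3 control arrays, 1 point per gene, over 17687 genes. Ribosomal protein genes lie near the dashed line of equality, ATF4 genes mostly below it and hypoxia genes mostly above it.

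Hypoxia genes ran the other way. Of 22 measured, 8 were higher in ethanol replicate 2 by at least 1 log2 unit, where 2.06% of all genes were. In replicate 1, 1 was higher by that much, where 1.57% of all genes were. The list median was -0.08 in replicate 1 and 0.69 in replicate 2, against -0.04 and -0.07 with DMSO and 0.15 in untreated cells. On both ethanol arrays together 1 was above all controls (4.55%, against 14.7% of all genes) and 1 below (4.55%, against 14.9%). NDRG1, a stress gene that HIF1 raises, had log2 signals of 10.81 and 12.74 in the ethanol arrays, against 10.22 and 10.29 with DMSO and 10.85 in untreated cells. P4HA1, a collagen prolyl hydroxylase, had 10.22 and 12.06 in the ethanol arrays, against 10.60, 10.35 and 10.67 in the controls, and P4HA2 had 9.16 and 10.95, against 8.87, 9.45 and 9.42. BHLHE40, a repressor induced by hypoxia, had 11.14 and 12.84 in the ethanol arrays, against 10.63, 11.06 and 11.44 in the controls. For these 4 genes replicate 1 lay within or near the controls and replicate 2 more than 1 unit above them.

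The other genes with the largest gap of replicate 2 over replicate 1 had no such common list. ARRDC3, an arrestin-like adaptor, had log2 signals of 8.64 and 10.79 in the ethanol arrays, against 9.06, 9.44 and 9.03 in the controls. The ceramidase ACER3 had 8.69 and 10.78 in the ethanol arrays, against 9.11, 9.15 and 9.09. TRIM9, a ubiquitin ligase best known from neurons, had 4.91 and 6.93 in the ethanol arrays, against 5.83, 5.81 and 5.67, with replicate 1 and all controls under the limit of detection. In these 3 genes replicate 1 was below all controls and replicate 2 above all of them. RDH10, which oxidises retinol to retinal, had 8.43 and 10.37 in the ethanol arrays, against 8.45, 8.42 and 8.82, and PCDH1, a protocadherin, had 6.40 and 8.35, against 5.86, 6.38 and 5.76. PCDH1 lay above all controls on both ethanol arrays.

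The replicates of other groups were also apart on the ATF4 list, in either direction. The median of replicate 1 minus replicate 2 over the 27 genes was 1.39 for ethanol, 0.82 for Maraviroc IC20, -1.27 for DZH_2 IC20 and -0.88 for DZH_2 IC50, against 0.24 for DMSO. For Maraviroc IC50, which was not in the fit, it was -0.38, opposite in direction to ethanol and Maraviroc IC20. IC20 stands for a dose with 20% inhibition and IC50 for one with 50%. Maraviroc IC20, whose solvent is ethanol per the labels, had 14.95 and 13.15 for ASNS, 12.65 and 10.99 for CHAC1 and 15.41 and 14.08 for PSAT1. Its second array was the lower one in each, as with ethanol. For hypoxia genes the median of replicate 1 minus replicate 2 was -0.89 for ethanol and -0.47 for Maraviroc IC20, against -0.06 for DMSO. Maraviroc IC50 had -0.51, DZH_2 IC20 0.27 and DZH_2 IC50 -0.07, so the gap was not particular to the ethanol and Maraviroc IC20 arrays. For ribosomal proteins this median was -0.04 for ethanol and 0.01 for Maraviroc IC20, against -0.05 for DMSO. There Maraviroc IC50 had -0.19, DZH_2 IC20 -0.14 and DZH_2 IC50 -0.10. The part of culture conditions or of array handling in these gaps was not tested.

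**Figure D5:**
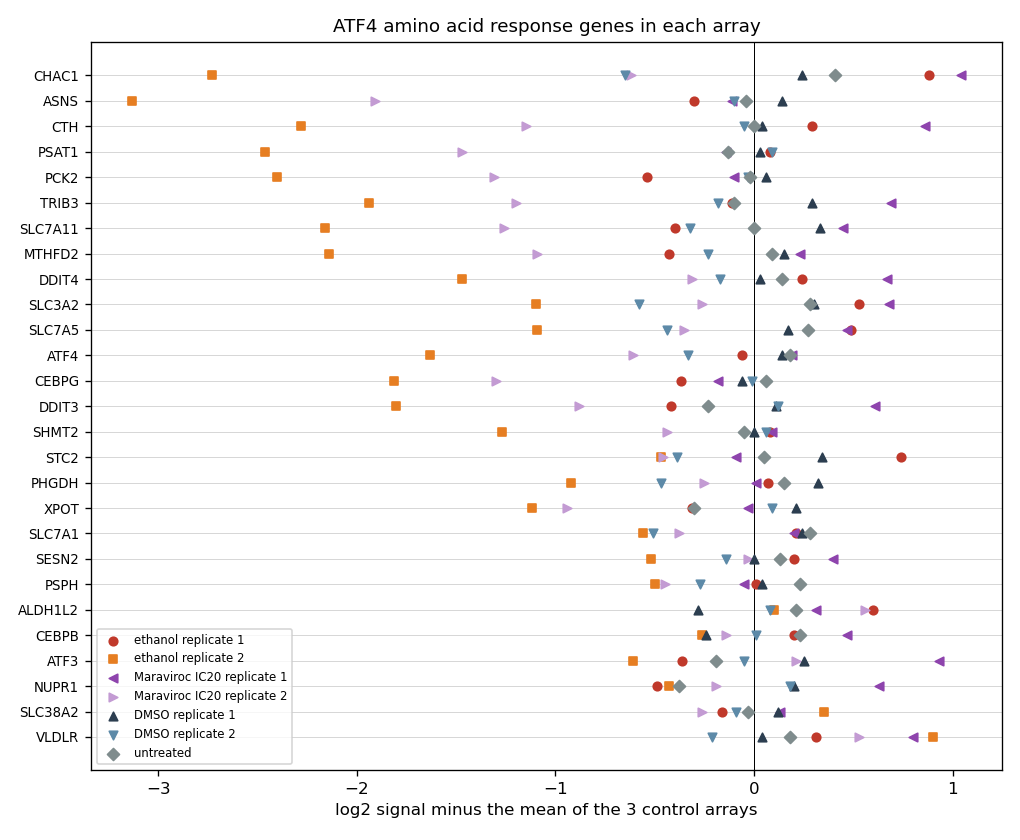
Log2 signal minus the mean of the 3 control arrays (x axis) for the 27 ATF4 genes, ordered by the gap between the ethanol arrays, 1 point per array, with the 2 Maraviroc IC20 arrays added. Ethanol replicate 2 lies farthest left for most of the upper rows, followed by Maraviroc IC20 replicate 2, and ethanol replicate 1 lies among the controls for many.

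List medians of the Maraviroc IC20 and the ethanol arrays are given side by side; both are relative to the same 3 control arrays, so their likeness is no separate observation. The Maraviroc IC20 median for ribosomal proteins was -0.20 and -0.22, against -0.30 and -0.31 with ethanol alone. For sterol synthesis it was 1.38 and 1.40, against 0.16 and 0.87 with ethanol alone, and for lysosomal genes 0.38 and 0.36, against 0.16 and 0.50. The difference between Maraviroc IC20 and ethanol was not tested here. For ABCA1 the Maraviroc IC20 arrays had 7.37 and 7.55, while the ethanol arrays had 5.72 and 6.33. The other exporter, ABCG1, went the other way, with 9.34 and 9.11 in the Maraviroc IC20 arrays, against 10.30 and 9.55 with ethanol.

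DMSO and untreated cells were also compared, with the caution that a lone untreated array stands on 1 side. Limma called 0 of 17687 genes (0.0%), and 430 had an unadjusted p under 0.05 (2.43%). FN1, fibronectin, had the largest difference among the 8 genes taken from this comparison, with log2 signals of 9.65 and 9.26 in the DMSO arrays, against 11.19 in the untreated array (-1.74 ± 0.36, limma adjusted p = 1.0). The ethanol arrays had 9.87 and 9.75, so both solvents lay below the untreated array. SPEF2 had 6.76 and 6.60 in the DMSO arrays, against 5.35, under the limit of detection, in the untreated array. The other 6, LGSN, ESRP1 and PTH1R lower with DMSO and OR10V1, PTGS1 and AADAC higher, had both group means under that limit, and no size is given for them.

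Cystatins are secreted protease inhibitors. In each of the cystatin genes measured the lowest single value was in a DMSO array. In CST1, CST3 and CST4 both DMSO arrays lay below the ethanol and untreated arrays. CST3 had log2 signals of 13.11 and 13.80 in the ethanol arrays, against 12.26 and 11.80 with DMSO and 13.01 in untreated cells (1.10 ± 0.32, limma adjusted p = 0.251). CST1 had 7.80 and 7.78 in the ethanol arrays, against 6.75 and 7.52 with DMSO and 8.34 in untreated cells, and CST4 had 7.67 and 7.20, against 6.59, 7.18 and 8.22. For CST1 and CST4 the ethanol arrays lay between DMSO and untreated cells. In CST2 ethanol and DMSO overlapped, with 9.12 and 8.35 in the ethanol arrays, against 8.59 and 7.80 with DMSO and 9.51 in untreated cells. They overlapped in CST5 and CST6 too, which were under the limit of detection. HMOX1, the heme oxygenase of oxidative stress, had 5.63 and 5.15 in the ethanol arrays, against 5.64, 5.64 and 5.55 in the controls, all under the limit of detection.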

How the data were processed

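Total RNA of MDA-MB-231 cells was measured on Affymetrix arrays. The authors deposited a log2 signal for each of 24351 probe sets. How they corrected the background, summarised and normalized it, and on which genome build, is stated neither in the labels nor in the file header, and the values were used as deposited. Of the probe sets 2903 were controls (612 of them negative), 3739 had no gene and 17709 had 1 gene; where a gene had more than 1 (20 genes), the probe set with the highest mean was kept, leaving 17687 genes. Groups came from the titles. The 11 MDA-MB-231 arrays without Maraviroc IC50, left out for its wide spread, were fitted with limma 3.58.1 (R 4.3.3) as 5 groups, with DMSO and untreated as 1 group and 6 residual degrees of freedom (5 with untreated apart). The 2-sided tests were adjusted by Benjamini-Hochberg over 17687 genes, with a threshold of 0.05; ± is the SE of that fit, which shares 1 spread per gene over the groups. The fit was tested on simulated data. No filter on low signal was applied. Arrays have no read depth; their small number limits precision.

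Genes were named by a rule: up to 12 calls each way, or else the 8 smallest p each way with both ethanol arrays beyond all controls and a mean above the limit of detection; 8 from DMSO against untreated; the 8 largest gaps each way between the ethanol arrays; up to 6 members of each list discussed, or every member of a short list; and ABCA1, ABCG1, CST1, CST4, HMGCS1 and HMOX1. The arrays compared, the lists, the rule and the exclusion of Maraviroc IC50 were chosen with earlier results of these data known. Alternatives were other sets of arrays, quantile normalization, median centring, array weights, a filter on low signal, a trend on mean signal, the replicate block and leaving out each array. Promoter sequences are RefSeq's (GRCh38.p14), matched by symbol for 14250 genes.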

Additional observations from a re-analysis of the deposited data

How the results depend on the processing

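No gene was called in ethanol against the 3 controls under any alternative except without DMSO replicate 2, where 2 were, HAS2 (-2.13 ± 0.27) and TNFSF18 (-2.39 ± 0.29), each with a limma adjusted p of 0.0349; both were under the limit of detection with ethanol. In ethanol against DMSO, leaving out ethanol replicate 1 gave 1 call, MSMP (6.92 ± 0.75, limma adjusted p = 0.0211), and calls ranged from 0 to 1 over the arrays left out. With each array left out in turn, genes at an unadjusted p under 0.05 ranged from 1261 to 2138 for ethanol against the 3 controls, from 1307 to 2081 against DMSO, from 774 to 1031 against untreated, and from 205 to 773 for DMSO against untreated. With all 13 arrays there were 431 such genes of 17687 for ethanol against untreated and 234 for DMSO against untreated. With the filter on low signal there were 462 and 206, out of the 11100 genes that it kept. These 2 counts are therefore not directly comparable with those over 17687 genes. The main fit did not pair arrays by replicate number. The deviations of same-numbered ethanol and DMSO arrays correlated at -0.08. The highest correlations were 0.301 for DZH_2 IC20 with DZH_2 IC50 and 0.251 for ethanol with Maraviroc IC20. Those of the other group pairs ran from -0.149 to 0.069. Whether same-numbered arrays of these groups shared a culture or a run was not tested. With the replicate block limma called 0 genes and had 2172 at an unadjusted p under 0.05, and SMPDL3A turned to -0.09. The remaining turns of direction came from leaving out 1 array. The log2 difference then ranged from -2.73 to 0.88 for CHAC1, -2.28 to 0.29 for CTH, -2.45 to 0.09 for PSAT1, -0.43 to 1.67 for ACER3, -0.54 to 1.62 for ARRDC3, -0.86 to 1.16 for TRIM9, -0.13 to 1.81 for RDH10, -0.32 to 1.52 for P4HA1, -0.09 to 1.71 for P4HA2, -0.10 to 0.86 for HMGCS1, -1.35 to 0.08 for ALDH3B1, -0.66 to 0.06 for ABCG4, -0.24 to 0.10 for NR1H3, -0.49 to 0.49 for SMPDL3A, -0.14 to 0.65 for CST1, -0.27 to 0.54 for CST4 and -0.45 to 0.02 for HMOX1. The list medians moved most for the ATF4 list (-1.13 to 0.07), hypoxia (-0.08 to 0.69) and sterol synthesis (0.16 to 0.87), in each case through an ethanol array, while that of the ribosomal proteins ranged from -0.34 to -0.30. Beyond these, the cause of the changes was not tested.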

Other observations

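Genes that lie over long stretches of the genome were more often lower with ethanol, a pattern seen after the values were known. Among genes with a mean above the limit of detection, divided into 5 groups of equal size by the span of the gene in RefSeq, the median log2 difference was -0.108 in the group of longest span (2220 genes) and 0.083 in that of shortest span (2220 genes). Both ethanol arrays were below all 3 controls in 25.8% of the longest and 11.2% of the shortest. For the longest the median was -0.184 in ethanol replicate 1 and -0.03 in replicate 2. The median of DMSO minus untreated was 0.053 in the longest and -0.057 in the shortest.

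Zinc finger genes, most of which code for DNA-binding repressors, were lower more often than other genes. Of 492 measured genes whose symbol is ZNF with a number, a set chosen after the values were seen, 121 were below all 3 controls on both ethanol arrays (24.6%, where 14.9% of all genes were) and 41 above (8.33%, where 14.7% were). Their median log2 difference was -0.138 in ethanol replicate 1 and -0.116 in replicate 2.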
